A study of Mus musculus with 6 samples.

Results

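The genes examined here are 9 genes of glycogen synthesis and breakdown in IWAT (inguinal white adipose tissue, a subcutaneous fat depot), chosen by gene symbol from the 55491 genes of the deposited table. They are *Gys1*, *Gys2*, *Gbe1*, and *Ugp2*, which build glycogen, *Pygb* and *Pygl*, which break it down, and *Ppp1r3b*, *Ppp1r3c*, and *Ppp1r3d*, which regulate both arms, and all 9 were found in the table. RNA was sequenced from the IWAT of male C57BL/6J mice on regular chow at 4 weeks of age, with 3 *Ebf2*+/+ (wild-type) mice and 3 *Ebf2* E165X/+ mice, as 1 library per mouse. *Ebf2* E165X/+ mice are heterozygous for a CRISPR/Cas9 knock-in of a stop codon in *Ebf2*, a transcription factor gene of the adipocyte lineage, and keep 1 intact allele in every cell. Per the study's supplement the edit was made in eggs of an SJL hybrid, and founders were then bred to C57BL/6J. The number of such crosses is not given. Any SJL segments kept with the edited allele cannot be told apart from genotype here. The comparison asks whether the glycogen genes differ between these genotypes before the fat depot shows overt defects.

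Glycogen is a branched polymer of glucose that most cells hold as a small, quickly used store, and adipocytes keep far less of it than liver or muscle. UDP-glucose pyrophosphorylase (*Ugp2*) makes the activated glucose, glycogen synthase (*Gys1* in most tissues and *Gys2* in liver and fat) adds it to the chain, and the branching enzyme (*Gbe1*) introduces branch points. Glycogen phosphorylase, with brain (*Pygb*), liver (*Pygl*), and muscle (*Pygm*) forms, releases glucose 1-phosphate. The *Ppp1r3* genes encode subunits that hold protein phosphatase 1 on the glycogen particle, where it activates the synthase and switches off the phosphorylase.

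Each library held 106820505 to 135039488 counts, and the 9 genes had between 515 and 53095 counts in any library, so that the number of mice, rather than counting error, limits the precision. Levels are in CPM, in which each count is divided by its TMM-scaled library size. *Ebf2* itself, which checks the labels, had 38.3, 41.3, and 37.2 CPM in the *Ebf2*+/+ libraries and 22.8, 22.9, and 21.1 CPM in the *Ebf2* E165X/+ libraries, a log2 fold change of −0.81 (SE 0.076) with an edgeR adjusted *P* of 0.060 and a DESeq2 adjusted *P* of 1.23e-13. The adipocyte markers were present in every library, with *Fabp4*, a fatty acid carrier of adipocytes and the most abundant of the 6 markers, between 3788 and 7524 CPM.

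One library of each genotype stood apart and bears on what follows. *Ebf2* E165X/+ mouse 3 was rich in skeletal muscle RNA: the summed level of 8 muscle markers was 39020 CPM, or 3.70% of counts, against 661 to 6768 CPM in the other five. Its summed level of 6 adipocyte markers was the lowest, 6490 CPM against 8556 to 11800 CPM. *Myh4*, a fast myosin heavy chain and the most abundant of the 8, had 11440 CPM there and 193 to 2354 CPM elsewhere, and none of the 8 was at 0 in all libraries. *Ebf2*+/+ mouse 1 had the highest level of 5 of the 9 glycogen genes, and of 23.3% of the 18905 genes that reached 10 counts in each library. The adipocyte markers also ran lower in *Ebf2* E165X/+ mice as a group: all 6 log2 fold changes were negative, with a median of −0.28, and the sums were 9261 to 11800 CPM in *Ebf2*+/+ and 6490 to 9962 CPM in *Ebf2* E165X/+ mice, which overlapped. *Adipoq* and *Lipe*, which encode adiponectin and hormone-sensitive lipase, were lower without overlap at −0.28 and −0.27, and none of the 6 was called by edgeR. Of the other cell types, the summed level of 6 brown and beige adipocyte markers was 143, 195, and 191 CPM in *Ebf2*+/+ mice and 28.6, 31.9, and 71.4 CPM in *Ebf2* E165X/+ mice, and that of 6 B and T cell markers was 297 to 460.1 CPM against 466 to 535 CPM. Both moved with genotype without overlap, and the part of these 3 groups of markers in the glycogen gene levels was not tested, other than by the ratio of *Gys2* to the adipocyte markers. The sums for neutrophils, macrophages, fibroblasts, endothelial cells, hepatocytes, epithelium, and red blood cells overlapped between the genotypes. Bulk libraries cannot tell fewer cells of a type from less RNA per cell.

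None of the 9 glycogen genes was called between the genotypes, a call requiring both an edgeR adjusted *P* under 0.05 and more than a 1.5-fold difference. By the same rule 3 of 32664 genes tested were called (0.00918%). In place of calls, the members are described by their levels and by unadjusted *P* values. Of the 9 log2 fold changes 7 were negative and 2 positive, with a median of −0.41, where the median was 0.025 and 43.9% were negative over the same 18905 genes. *Gbe1*, *Pygb*, *Pygl*, and *Ppp1r3b* were lower in all *Ebf2* E165X/+ libraries than in any *Ebf2*+/+ library, and no member was higher in all of them. Of those 18905 genes, 6.78% were lower without overlap and 6.66% higher. The same 4 members had an unadjusted edgeR *P* under 0.05, which 4.21% of those genes had in the lower direction and 1.86% in the higher direction. The limit of 10 counts for these shares and the count by unadjusted *P* were chosen after the values were seen. The count of 4 depended on *Ebf2* E165X/+ mouse 1, since without it *Pygb* and *Ppp1r3b* alone, 2 members, had an unadjusted *P* under 0.05.

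**Figure D1:**
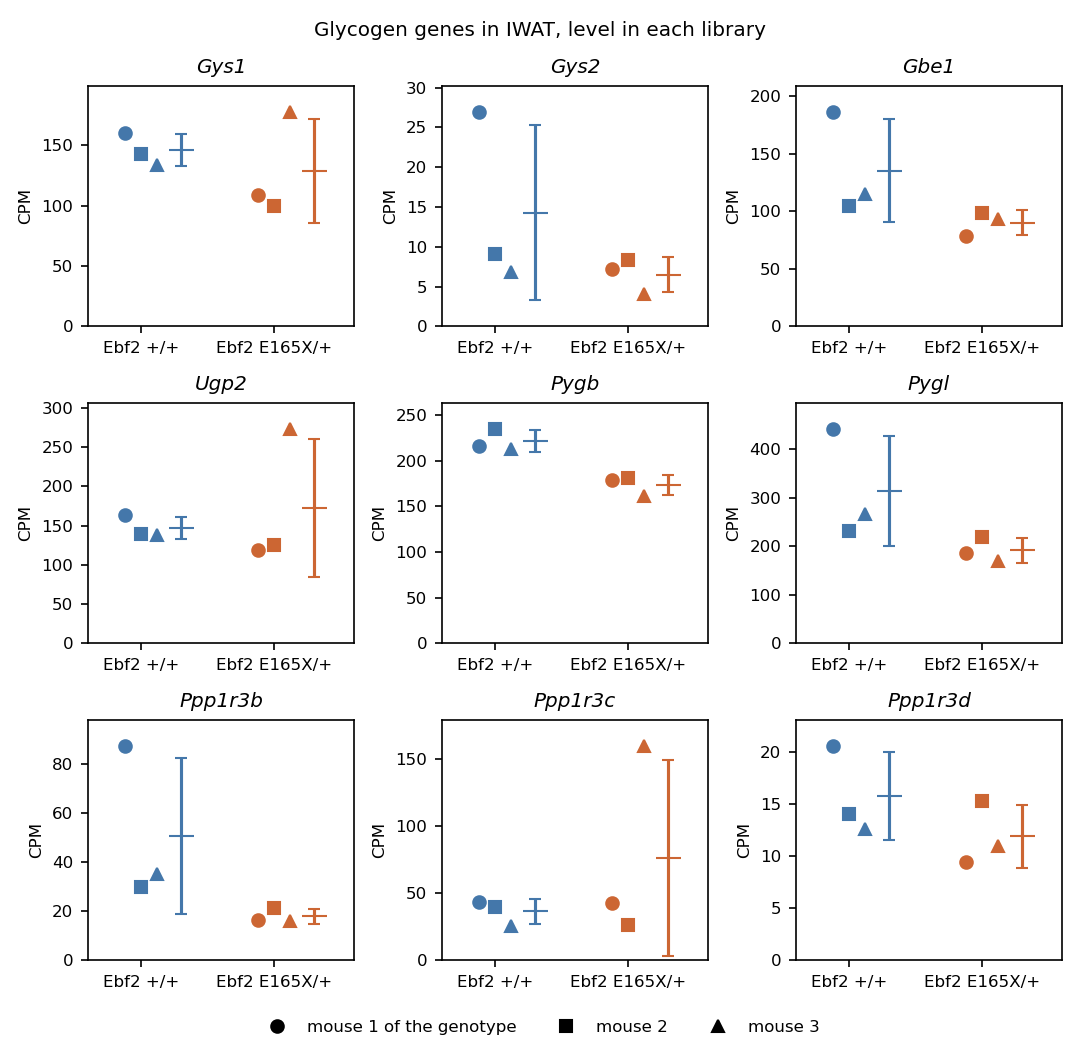
Level of the 9 glycogen genes in CPM (y axis, from 0, a scale for each gene) in each library of *Ebf2*+/+ (blue) and *Ebf2* E165X/+ (orange) mice. Symbols mark the mouse number within its genotype, and bars give the mean and SD over 3 mice. *Gbe1*, *Pygb*, *Pygl*, and *Ppp1r3b* do not overlap, *Ebf2*+/+ mouse 1 is high for *Gys2*, *Pygl*, and *Ppp1r3b*, and *Ebf2* E165X/+ mouse 3 is high for *Gys1*, *Ugp2*, and *Ppp1r3c*.

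Of the enzymes of synthesis, *Gbe1* was the only one whose genotypes did not overlap. The branching enzyme transcript (ENSMUSG00000022707, GRCm38 chr16:70313949-70569716, + strand) had 186, 105, and 115 CPM in *Ebf2*+/+ mice and 78.3, 98.6, and 93.4 CPM in *Ebf2* E165X/+ mice. *Ebf2*+/+ mouse 1 was well above the other five. Its log2 fold change was −0.59 (SE 0.22), with an edgeR *P* of 0.028 unadjusted and 0.783 adjusted. Without *Ebf2*+/+ mouse 1 it was −0.30.

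*Gys2*, the liver and adipocyte glycogen synthase (ENSMUSG00000030244, chr6:142422613-142473109, − strand), had 27.0, 9.05, and 6.88 CPM in *Ebf2*+/+ mice and 7.19, 8.33, and 4.02 CPM in *Ebf2* E165X/+ mice. The level in *Ebf2*+/+ mouse 1 was 3.39 times the mean of the other *Ebf2*+/+ mice, which lay within or close to the *Ebf2* E165X/+ values. The log2 fold change of −1.14 (SE 0.52, edgeR adjusted *P* = 0.783) therefore rested on that mouse and was −0.31 without it. The same library had the highest sum of 5 hepatocyte markers, 17.6 CPM against 9.01 to 11.7 CPM elsewhere, nearly all of it *Alb*, and of 5 epithelial markers, 69.5 CPM against 1.55 to 34.4 CPM. Their part in the *Gys2* level was not tested.

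*Gys1*, the synthase of most tissues (ENSMUSG00000003865, chr7:45434844-45456619, + strand), had 160.2, 143, and 134 CPM in *Ebf2*+/+ mice. It had 108.8 and 99.7 CPM in *Ebf2* E165X/+ mice 1 and 2 and 178 CPM in the muscle-rich mouse 3. Over all 6 mice the log2 fold change was −0.18 (SE 0.21, edgeR adjusted *P* = 0.818). Without mouse 3 the genotypes did not overlap, and it was −0.48 (SE 0.10) with an edgeR *P* of 0.0016 unadjusted and 0.308 adjusted. Exons of *Gys1* overlap those of *Ruvbl2* on the opposite strand, and reads of the overlap cannot be told apart unless strand was used, which is not given in the sources used here.

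*Ugp2*, which supplies UDP-glucose (ENSMUSG00000001891, chr11:21321138-21371201, − strand), followed *Gys1*. It had 163, 139, and 138 CPM in *Ebf2*+/+ mice, 119 and 125 CPM in *Ebf2* E165X/+ mice 1 and 2, and 273 CPM in mouse 3. The log2 fold change of 0.23 (SE 0.31, edgeR adjusted *P* = 0.841) turned to −0.27 (SE 0.10) without mouse 3, with an edgeR *P* of 0.031 unadjusted and 0.861 adjusted. *Ugp2* shares exon bases with *Gm12043*, a gene on the other strand.

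Both nonmuscle phosphorylases were lower in *Ebf2* E165X/+ IWAT without overlap. *Pygb*, the brain form (ENSMUSG00000033059, chr2:150786735-150831758, + strand), had 216, 235, and 212 CPM in *Ebf2*+/+ mice and 179, 181, and 161 CPM in *Ebf2* E165X/+ mice. *Ebf2*+/+ mouse 1 lay between the other *Ebf2*+/+ mice here. The difference of −0.35 on the log2 scale had the smallest SE of the 9 genes (0.090), and corresponds to a level 0.785 times that of *Ebf2*+/+ mice, and it stayed between −0.40 and −0.30 when any 1 mouse was left out. The unadjusted *P* of edgeR was 0.0053 and the adjusted *P* 0.783. DESeq2, the tool of the study, gave an adjusted *P* of 0.028, so that *Pygb* was 1 of 189 genes of 16078 (1.18%) past the adjusted *P* in DESeq2 but was not among the 98 genes (0.61%) that also passed the fold threshold.

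*Pygl*, the liver form (ENSMUSG00000021069, chr12:70190811-70231488, − strand), had 442, 232, and 268 CPM in *Ebf2*+/+ mice and 187, 219.6, and 169.5 CPM in *Ebf2* E165X/+ mice. The lowest *Ebf2*+/+ and the highest *Ebf2* E165X/+ mouse were close, and *Ebf2*+/+ mouse 1 was 1.77 times the mean of the other *Ebf2*+/+ mice. This gave a log2 fold change of −0.71 (SE 0.24), with an edgeR *P* of 0.019 unadjusted and 0.783 adjusted, and DESeq2's adjusted *P* was 0.102. Without *Ebf2*+/+ mouse 1 it was −0.39.

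The promoters of the phosphorylases are shown as a pair of isoforms that were both lower without overlap, since *Ebf2* encodes a DNA-binding factor. RefSeq (GRCm38.p6) gave windows of 300 bases around the start of 7 of the 9 genes, with none for *Gys2* and *Ppp1r3b*. Each was searched for CCCNNGGG, a letter pattern of EBF binding sites that reads the same on both strands, and its bases outside annotated exons are printed 5′ to 3′ with matches in capitals. The *Pygl* stretch lies at chr12:70227684-70227840 (− strand), within the annotated span of the gene, and the *Pygb* stretch at chr2:150786546-150786734 (+ strand).
Pygl: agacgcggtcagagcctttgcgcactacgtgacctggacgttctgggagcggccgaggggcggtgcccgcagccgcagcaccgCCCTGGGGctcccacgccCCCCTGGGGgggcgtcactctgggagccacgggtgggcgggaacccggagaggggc
Pygb: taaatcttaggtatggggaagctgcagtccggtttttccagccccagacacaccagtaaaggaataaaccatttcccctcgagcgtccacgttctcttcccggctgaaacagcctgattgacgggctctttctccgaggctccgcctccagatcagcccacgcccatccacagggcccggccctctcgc

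*Pygl* held 3 matches, of which 2 overlap, and *Pygb* held none, nor did *Gbe1*, *Gys1*, and *Ppp1r3c*. The letters were in the windows of 3 of the 7 genes, or 4 of 8 windows, those of *Pygl* and *Ppp1r3d* and both windows of *Ugp2*, which has 2 starts listed, and 13.7% of 32851 promoter windows hold them. The E-box CACGTG, which 7.15% of windows hold, was found in *Ppp1r3c* and *Ppp1r3d*, and TCAAGGTCA, a pattern of estrogen-related receptors, was in none of them and in 0.423% of all windows. A match describes the letters and not a bound site.

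Among the phosphatase targeting subunits, *Ppp1r3b* showed the widest genotype difference of the 4 members without overlap. *Ppp1r3b*, the subunit known from liver (ENSMUSG00000046794, chr8:35375739-35388139, + strand), had 87.4, 29.96, and 35.1 CPM in *Ebf2*+/+ mice and 16.4, 21.4, and 16.1 CPM in *Ebf2* E165X/+ mice. All *Ebf2* E165X/+ mice lay below the lowest *Ebf2*+/+ mouse, and *Ebf2*+/+ mouse 1 was 2.69 times the mean of the other *Ebf2*+/+ mice. On the log2 scale the difference was −1.50 (SE 0.39, 95% interval −2.41 to −0.60), with an edgeR *P* of 0.0054 unadjusted and 0.783 adjusted, and DESeq2's adjusted *P* was 0.201. Without *Ebf2*+/+ mouse 1 it was −0.87 (95% interval −1.23 to −0.52).

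*Ppp1r3c*, a widely expressed subunit (ENSMUSG00000067279, chr19:36731731-36736653, − strand), had 43.8, 40.0, and 25.6 CPM in *Ebf2*+/+ mice and 42.4 and 26.4 CPM in *Ebf2* E165X/+ mice 1 and 2. The muscle-rich mouse 3 had 159.9 CPM, 4.65 times the mean of the other *Ebf2* E165X/+ mice. The log2 fold change of 1.06 (SE 0.61, edgeR adjusted *P* = 0.783) was −0.08 without that mouse, with a 95% interval from −0.68 to 0.51.

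*Ppp1r3d* (ENSMUSG00000049999, chr2:178411206-178414472, − strand), another targeting subunit, had 20.6, 14.1, and 12.6 CPM in *Ebf2*+/+ mice and 9.43, 15.3, and 10.99 CPM in *Ebf2* E165X/+ mice. The genotypes overlapped, and the log2 fold change was −0.41 (SE 0.23, edgeR adjusted *P* = 0.783). It was −0.18 without *Ebf2*+/+ mouse 1 and −0.63, without overlap, when *Ebf2* E165X/+ mouse 2 was left out.

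**Figure D2:**
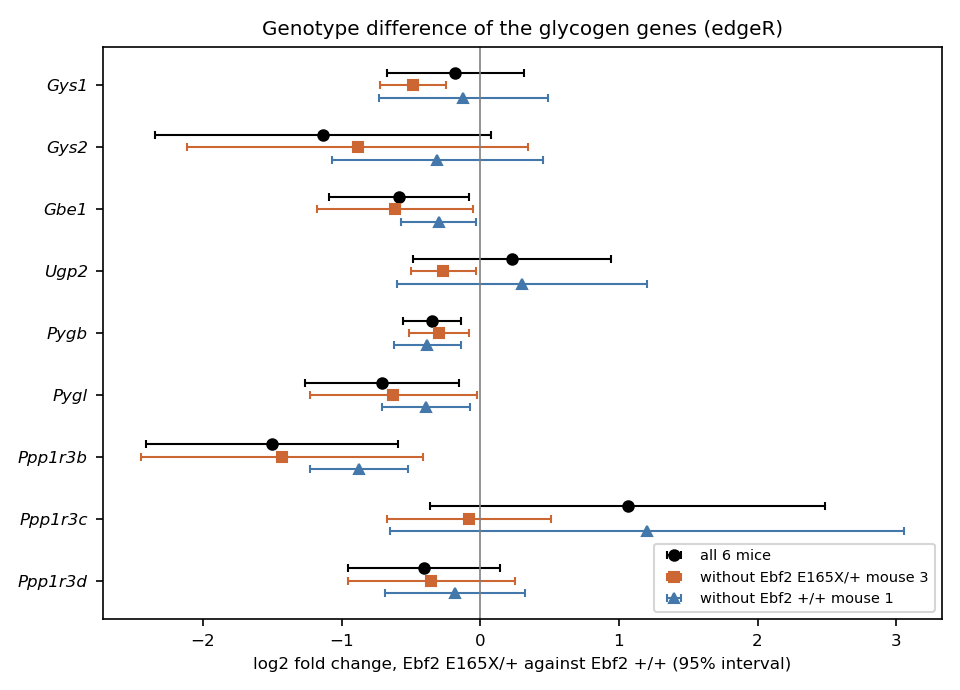
Log2 fold change of *Ebf2* E165X/+ against *Ebf2*+/+ (x axis) with the 95% interval of edgeR for each glycogen gene (y axis), from all 6 mice (black), without *Ebf2* E165X/+ mouse 3 (orange), and without *Ebf2*+/+ mouse 1 (blue). *Ugp2* and *Ppp1r3c* change sign without *Ebf2* E165X/+ mouse 3, and the intervals of *Gbe1*, *Pygb*, *Pygl*, and *Ppp1r3b* lie below 0 in all 3 fits.

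Without the muscle-rich *Ebf2* E165X/+ mouse 3, all 9 log2 fold changes were negative, with a median of −0.48 against 0.0094 over the 18905 genes. *Gys1* and *Ugp2* joined the 4 genes above, so that 6 members were lower without overlap and the same 6 had an unadjusted edgeR *P* under 0.05. With 2 mice against 3, 12.8% of those genes were lower without overlap and 4.89% had such a *P* in the lower direction. No member was called there either, and the lowest adjusted *P* was that of *Gys1*. Leaving out *Ebf2*+/+ mouse 1 as well gave log2 fold changes of −0.80 for *Ppp1r3b*, −0.33 for *Pygb*, −0.32 for *Gbe1*, −0.31 for *Pygl*, −0.42 for *Gys1*, and −0.20 for *Ugp2*, while *Gys2* was at −0.05 and *Ppp1r3c* at 0.06.

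Levels were set against each other per kilobase of exon, with the limit that libraries read from the 3′ end, which the study's methods name, do not scale with length. In *Ebf2*+/+ mice the CPM per kilobase was 47.9 ± 4.65 for *Ugp2*, 45.98 ± 2.5 for *Pygb*, and 45.5 ± 16.3 for *Pygl* (mean ± SD, *n* = 3). These neighbours in the order overlapped. *Gys1* at 30.5 ± 2.76 and *Gbe1* at 25.3 ± 8.31 came next and overlapped, and *Gys1* lay below every *Pygl* value. The regulatory subunits and *Gys2* were lower, with 13.4 ± 3.52 for *Ppp1r3c*, 8.18 ± 5.12 for *Ppp1r3b*, 5.38 ± 4.15 for *Gys2*, and 4.83 ± 1.299 for *Ppp1r3d*, and each overlapped its neighbour.

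Ratios of isoforms within a library do not depend on its scaling. The log2 ratio of *Gys2* to *Gys1*, the adipocyte and liver synthase over the general one, was −2.57, −3.98, and −4.28 in *Ebf2*+/+ mice and −3.92, −3.58, and −5.46 in *Ebf2* E165X/+ mice. The genotypes overlapped, with a difference of −0.71 (two-sided exact permutation test, *P* = 0.6). The log2 ratio of *Pygl* to *Pygb* was 1.03, −0.02, and 0.33 in *Ebf2*+/+ mice and 0.06, 0.28, and 0.08 in *Ebf2* E165X/+ mice, again with overlap, a difference of −0.31 (exact permutation test, *P* = 0.6). The log2 level of *Gys2* over the mean of 6 adipocyte markers was −5.28, −6.86, and −7.05 against −6.93, −6.77, and −7.35, a difference of −0.62 (exact permutation test, *P* = 0.5). Adjusted over these 3 tests by Benjamini-Hochberg, each permutation *P* was 0.6, and 3 mice per genotype cannot give one below 0.1. Without *Ebf2*+/+ mouse 1 the 3 differences were −0.19, −0.02, and −0.06, in the order given. They were −0.14, −0.28, and −0.46 when the muscle-rich *Ebf2* E165X/+ mouse 3 was left out instead.

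**Figure D3:**
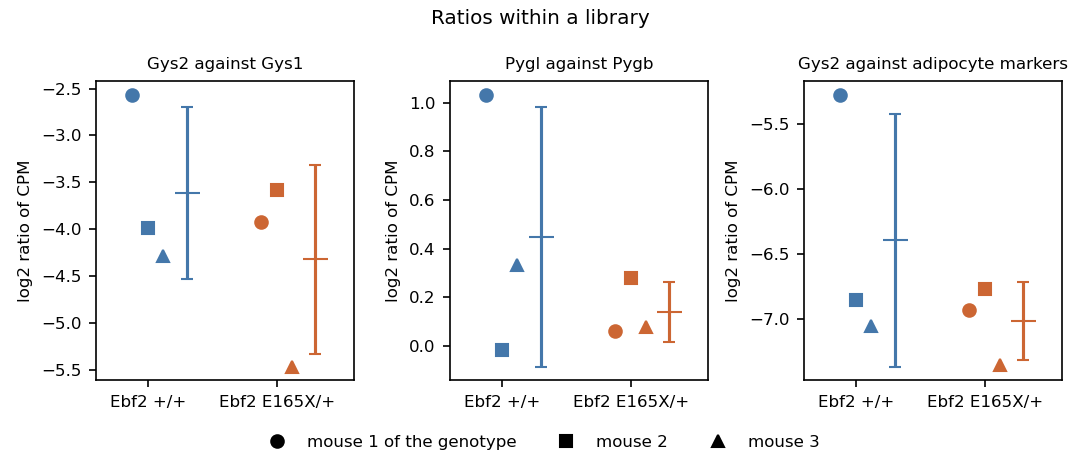
Log2 ratios of CPM (y axis) within each library of *Ebf2*+/+ (blue) and *Ebf2* E165X/+ (orange) mice, for *Gys2* against *Gys1*, *Pygl* against *Pygb*, and *Gys2* against the mean of 6 adipocyte markers. Symbols mark the mouse number, bars give the mean and SD over 3 mice, and in all 3 panels the genotypes overlap with *Ebf2*+/+ mouse 1 highest.

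The rest of the pathway was counted in the same way, with no test between the lists. Of 33 further glycogen genes listed, 32 were in the table, 22 with a positive and 10 with a negative log2 fold change (median 0.11), where 43.9% of the 18905 genes were negative, and edgeR called none. The split of signs rested on mouse 3, since without it most were negative. The highest level of 17 of them was in the muscle-rich *Ebf2* E165X/+ mouse 3, where 23.6% of the 18905 genes were highest. *Pygm*, the muscle phosphorylase, had 62.6, 247, and 106 CPM in *Ebf2*+/+ mice and 97.0, 31.6, and 1573 CPM in *Ebf2* E165X/+ mice. Mouse 3 was thus far above the other five, which overlapped between the genotypes.

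Without mouse 3, 24 of the 32 genes were negative and 8 positive (median −0.14), and 10 had an unadjusted edgeR *P* under 0.05 in the lower direction and none in the higher, where with all mice 1 was lower (*Ppp1r3e*) and 1 higher (*Pgm2l1*) by that measure. Of the 18905 genes, 47.8% were negative in that fit and 4.89% had such a *P* in the lower direction. *Pgm1*, which interconverts glucose 1-phosphate and glucose 6-phosphate, was then at −0.40 (SE 0.12), and *Slc2a4*, the insulin-regulated glucose transporter, at −0.64 (SE 0.21). *Slc2a4* was at −0.45 with all mice and at −0.21 without *Ebf2*+/+ mouse 1. Neither was called. The muscle markers were highest in mouse 3, as was *Pgm1* with 396 CPM. *Slc2a4* had 172 CPM there, within the *Ebf2*+/+ range of 154 to 248 CPM. Among the remaining mice muscle sums were unequal, at 1633, 6768, and 2586 CPM in *Ebf2*+/+ and 2801 and 661 CPM in *Ebf2* E165X/+. The muscle phosphorylase *Pygm* was at −1.11 without mouse 3. The part of muscle RNA in either fit was not tested.

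*Ppp1r3e*, a further phosphatase targeting subunit (ENSMUSG00000072494, chr14:54872669-54877550, − strand), differed from the rest of that list. It had 7.93, 7.50, and 6.83 CPM in *Ebf2*+/+ mice and 3.93, 4.55, and 3.72 CPM in *Ebf2* E165X/+ mice, with a narrow spread in both genotypes and no overlap. Its log2 fold change was −0.87 (SE 0.14, 95% interval −1.20 to −0.53), with an edgeR *P* of 0.00038 unadjusted and 0.377 adjusted. DESeq2 called it, with an adjusted *P* of 3.24e-07, and it was the 1 gene of the 32 that DESeq2 called. Of the 16078 genes given an adjusted *P* by DESeq2, 0.61% were called. It was named after its values were seen. Whether SJL segments kept with the edited *Ebf2* allele reach this gene or bear on its level was not tested. The others without overlap were *Phkg2*, a catalytic subunit of the kinase that activates phosphorylase, at 0.14 (SE 0.076), and *Pgm2l1*, a glucose 1,6-bisphosphate synthase, at 0.28 (SE 0.10), both higher in *Ebf2* E165X/+ mice. So 1 of the 32 genes was lower and 2 were higher without overlap, no larger a share than the 6.78% and 6.66% of the 18905 genes.

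**Figure D4:**
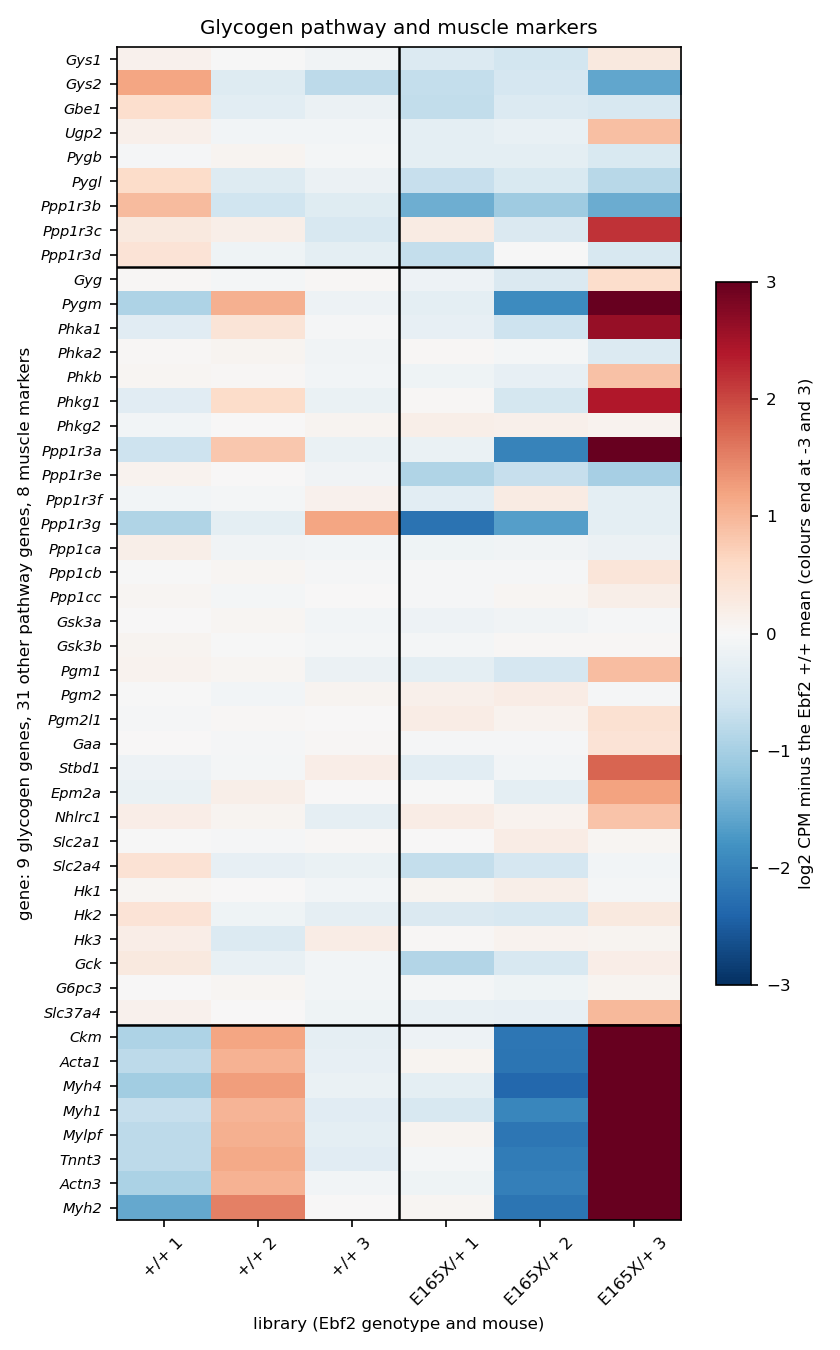
Log2 CPM minus the mean of the *Ebf2*+/+ libraries (colour, blue lower and red higher) for the 9 glycogen genes, 31 other genes of the pathway, and 8 skeletal muscle markers (rows) in each library (columns). Muscle markers, *Pygm*, *Phka1*, *Phkg1*, and *Ppp1r3a* are red in *Ebf2* E165X/+ mouse 3, and *Ppp1r3b* and *Ppp1r3e* are blue in all 3 *Ebf2* E165X/+ libraries.

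The genes whose log2 CPM followed a member most closely over the 6 libraries were found for the 3 members with the lowest unadjusted *P*, among 18896 genes. For *Pygb* they were *Naa80*, *Supt3*, and *Ech1*, with Pearson's *r* from 0.990 to 0.993. For *Ppp1r3b* they were *Mrpl10*, *Mr1*, and *Sirt5* (*r* from 0.992 to 0.996), and for *Pygl* they were *Mrpl10*, *B430219N15Rik*, and *Tmem79* (*r* from 0.992 to 0.996). These values describe 6 shared libraries, 3 of each genotype, and the highest of so many correlations are large by selection.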

How the data were processed

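IWAT RNA of 6 mice was measured. The authors deposited expected counts per gene, not scaled for library size, and all 332946 values were whole. Per the submitters' notes cutadapt 4.8, FastQC 0.11.8, STAR 2.7.8a, RSEM 1.3.3, MultiQC 1.20, and GRCm38 were used. The study's methods name 3′ libraries, while the labels name another kit. Genotypes came from the labels, and separate mice are the replicates.

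Genes counted at least 1 time in some library were analysed with edgeR 4.0.16 (R 4.3.3), using TMM scaling and a quasi-likelihood test of genotype without covariates, and *P* values were adjusted by Benjamini-Hochberg over all genes. Log2 CPM used a prior count of 2. Alternatives were DESeq2 1.42.0, limma-voom (limma 3.58.1), DESeq2's size factors, other filters on low counts, a replicate block, a prior count of 0.5, and each mouse left out. DESeq2 without a fold threshold and the fit without both outlying mice were added after the data were seen. Permutation tests used scipy 1.17.1. Fits were tested on simulated data, with no outcome given here. Exon lengths and overlaps came from GENCODE M21.

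One gene of the pathway list is counted but not reported by name. The members and lists were chosen with earlier results of these data known. Named genes are the members, *Ebf2*, the pathway and marker lists, and the 3 best correlated genes of each of 3 members. Genes of fatty acid synthesis were added after their values were seen.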

Additional observations from a re-analysis of the deposited data

How the results depend on the processing

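No member was called under edgeR in any alternative, under limma-voom, or under DESeq2 with the fold threshold, and 1 member, *Pygb*, passed the adjusted *P* in DESeq2 without it. The number of genes called, 3 in edgeR, was 98 in DESeq2, 189 in DESeq2 without a fold threshold, and 16 when *Ebf2*+/+ mouse 1 and *Ebf2* E165X/+ mouse 3 were both left out. It ran from 1 to 11 when 1 mouse was left out, with 1 without *Ebf2*+/+ mouse 2 and 11 without *Ebf2* E165X/+ mouse 3. The causes were not tested. Members without overlap ran from 4 to 6, with 6 without *Ebf2* E165X/+ mouse 3. In that fit 12.8% of the 18905 genes were lower without overlap, against 6.78% with all mice. The ratios kept their sign, from −1.08 to −0.14 for *Gys2* to *Gys1*, −0.54 to −0.02 for *Pygl* to *Pygb*, and −0.95 to −0.06 for *Gys2* to adipocyte markers.

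Of the log2 fold changes of 22 named genes, 10 changed sign in some setting. With 1 mouse left out they ran from −0.27 to 0.44 for *Ugp2*, −0.084 to 1.47 for *Ppp1r3c*, −1.11 to 2.74 for *Pygm*, −0.28 to 0.23 for *Gyg*, −0.40 to 0.44 for *Pgm1*, −0.45 to 1.77 for *Phka1*, −0.19 to 0.46 for *Phkb*, −0.27 to 1.603 for *Phkg1*, −0.97 to 2.69 for *Ppp1r3a*, and −0.49 to 0.030 for *Hk2*. The low end was without *Ebf2* E165X/+ mouse 3 in each, and the positive *Hk2* value was without *Ebf2*+/+ mouse 1. *Gyg* was also slightly below 0, at −0.00031, without *Ebf2*+/+ mouse 2. With both outlying mice left out, *Ugp2* was at −0.20, *Pygm* at −1.47, *Gyg* at −0.27, *Pgm1* at −0.36, *Phka1* at −0.61, *Phkb* at −0.18, *Phkg1* at −0.45, and *Ppp1r3a* at −1.24. *Gyg* was at −0.014 in limma-voom.

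Same-numbered mice did not deviate together (correlations of 0.15, −0.28, and −0.16 over 18905 genes). The labels do not say whether the replicate numbers pair the samples, and these correlations cannot settle it. The replicate block gave 2 called genes in place of 3, no called member, 4 members with an unadjusted edgeR *P* under 0.05 (with *Gys2* in place of *Gbe1*), and *Gyg* at −0.016.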

Other observations

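Genes of fatty acid synthesis, which were chosen after the values were seen, shared the high values of *Ebf2*+/+ mouse 1: all 8 examined had their highest level in that library, as did 23.3% of 18905 genes with 10 counts or more in each library. *Fasn*, fatty acid synthase, had 12650, 5101, and 6660 CPM in *Ebf2*+/+ mice and 3701, 5554, and 3454 CPM in *Ebf2* E165X/+ mice. *Elovl6*, an elongase of fatty acids, had 706, 181.5, and 309 CPM against 151, 226, and 134 CPM. *Mlxipl*, which encodes the glucose-responsive factor ChREBP, had 149, 88.4, and 123 CPM against 53.4, 84.3, and 82.5 CPM, without overlap between the genotypes. None of the 8 was called in edgeR, and *Scd1*, *Mlxipl*, *Srebf1*, and *Me1*, 4 of them, were lower without overlap, as were 6.78% of the 18905 genes. Because the 8 were picked with these values in view, neither count is a result about them.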
